A study of Mus musculus with 4 samples.

Results

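Matrix metalloproteinases are zinc-dependent enzymes that cleave collagens, elastin and other matrix proteins, and the tissue inhibitors of metalloproteinases (TIMPs) bind and block them. In the healing heart, both kinds of protein shape how dead muscle is removed and how a scar is laid down, and macrophages are one of their sources. Transcripts of 9 such genes were followed here, out of 31053 genes listed. They were 6 metalloproteinases, Mmp14, Mmp12, Mmp13, Mmp19, Mmp8 and Mmp9, and 3 inhibitors, Timp1, Timp2 and Timp3. The members were chosen by gene symbol, and each symbol matched 1 listed gene.

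The cells came from CSF1R-EGFP mice, a reporter strain in which the Csf1r promoter drives EGFP, of both sexes on a C57Bl6J background, aged 12 to 16 weeks. Cardiac cells were sorted as EGFP-positive and Ly6G-negative, so that monocytes, macrophages and other Csf1r-expressing cells were taken and neutrophils, which carry Ly6G, were meant to be left out. The Baseline group was 1 library of 3 pooled hearts without surgery. For the Infarct group, 3 hearts were taken 7 days after permanent coronary ligation, each made into its own library, with the remote zone cut away. Both groups carry the reporter, and no gene was deleted in either.

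After filtering, 41533 of 41686 cells remained, between 10117 and 10782 per library. The median cell held 6398.5 UMIs (unique molecular identifiers, 1 per captured RNA molecule) in Baseline and between 8469.5 and 8556.5 in the infarcts. Library pairs shared 26 to 34 cell barcodes. Cells were divided by marker genes into 18 gated types, none of which used a member gene. The gates that most results concern are the Gpnmb-list macrophages (Gpnmb, Spp1, Trem2, Fabp5), which held 148 cells in Baseline and 3571, 5403 and 4457 in the infarcts, and resident macrophages (Lyve1, Timd4, Folr2), which held 3413 and then 130, 114 and 149. A gate is a range of marker level and not a proven cell type. In the Gpnmb-list gate, 35.1% to 37.9% of the infarct cells lay between the entry level of 10 marker UMIs per 10000 and a stricter level of 20. Granulocyte and B cell markers defined small gates of 66 to 108 and 25 to 114 cells despite the sort. The Gpnmb-list gate required C1q and other macrophage core genes, and the C1q-low gate took the cells that missed that level, so C1q is no check of either. The resident gate used no C1q gene, and C1qa was found in 97.5% of its Baseline cells and 99.5% of its infarct cells. The shares in the shallower granulocytes were 33.8% and 44.7% (median depths 2175.5 and 2686 UMIs, against 7162 and 8066). Levels below are in CPM, the UMIs of a gene per 1000000 UMIs summed over the cells named, with mitochondrial genes left out of the total. Each captured molecule is counted once at its 3' end, so gene length does not enter a level.

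Mmp13, Mmp12 and Mmp8 are neighbours on mouse chromosome 9. In GRCm38 they span chr9:7272514-7283331, chr9:7344381-7369499 and chr9:7558456-7568485, all on the plus strand, with 61049 and 188956 bases between them. All 3 had lower levels over all cells in every infarct library than in Baseline, so the 150 bases before their transcription starts are shown. The sequences are from RefSeq (GRCm38.p6), plus strand, 5′ to 3′, and end at the base before the start. Capitals mark matches to TGANTCA, which includes the element bound by the AP-1 (Fos and Jun) factors and reads the same on both strands.
Mmp13 (chr9:7272364-7272513): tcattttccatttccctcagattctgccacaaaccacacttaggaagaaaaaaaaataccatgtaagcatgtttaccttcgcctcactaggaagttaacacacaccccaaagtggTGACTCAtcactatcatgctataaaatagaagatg
Mmp12 (chr9:7347224-7347373, the downstream of 2 starts): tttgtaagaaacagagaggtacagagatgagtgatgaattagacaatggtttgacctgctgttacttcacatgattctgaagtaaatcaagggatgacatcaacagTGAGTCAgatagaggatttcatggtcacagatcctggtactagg
Mmp8 (chr9:7558279-7558428): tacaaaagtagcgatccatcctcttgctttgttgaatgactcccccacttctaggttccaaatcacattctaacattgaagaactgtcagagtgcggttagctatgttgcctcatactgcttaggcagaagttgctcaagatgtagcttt
One match began 35 bases before the start of Mmp13 and another 44 bases before the downstream start of Mmp12. The windows of Mmp8 and of the upstream start of Mmp12 held none. Of all 32851 promoter windows of that length, 4.24% held a match. RefSeq promoter windows were matched for 7 of the 9 members, and those of Mmp14, Timp1, Timp2 and Timp3 held none. A match of letters is a description of the window, and binding was not measured here.

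The first comparison asked how the members differed between infarct and uninjured hearts over all sorted cells. The 6 metalloproteinases together gave 223.2 CPM in Baseline and 201.7, 245.3 and 212.5 in Infarct 1, 2 and 3, so that the Baseline value lay inside the infarct range. Their make-up was different. Mmp12 and Mmp13 were 77.5% of the metalloproteinase UMIs in Baseline and 29.3% ± 5.5 (SD, n = 3) in the infarcts, while Mmp14 went from 5.65% to 51.2% ± 0.68. The 3 inhibitors summed to 481.3 CPM in Baseline and 511.5 ± 23.7 in the infarcts, nearly all of it Timp2. With 1 Baseline library, no test was made of infarct against Baseline. Intervals for Baseline are exact 95% Poisson intervals, which cover counting error only.

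**Figure D1:**
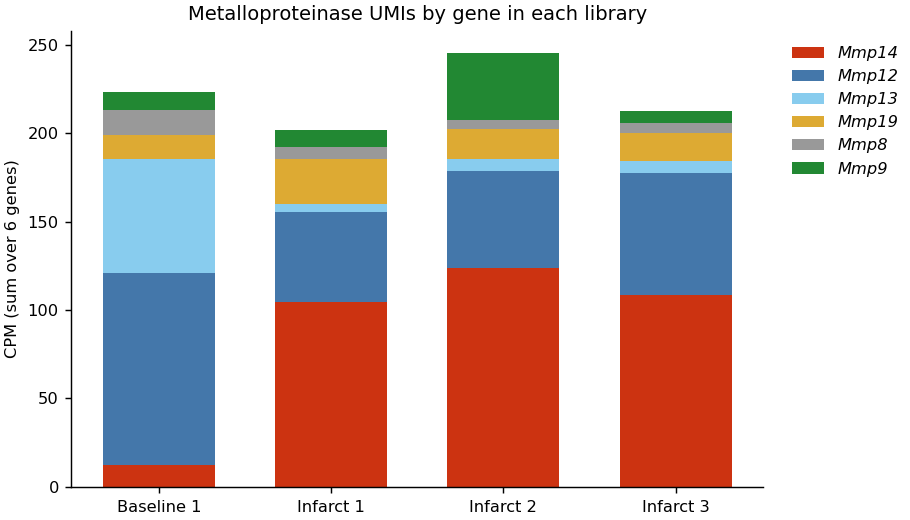
Bars stack the CPM of the 6 metalloproteinase genes over all cells of each library, with 1 bar per library. The total is 223.2 in Baseline and 201.7 to 245.3 in the infarct libraries, while Mmp14 (red) grows from 5.65% to 50.5% to 51.9% of the bar and Mmp13 (light blue) shrinks from 29.0% to 2.3% to 3.2%.

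Mmp14, a membrane-anchored collagenase that also activates other metalloproteinases, had the largest rise as a difference in CPM. It stood at 12.6 CPM in Baseline (11.8 to 13.5) and at 104.7, 123.9 and 108.6 in Infarct 1, 2 and 3. All infarct libraries were far above Baseline, and their mean of 112.4 ± 10.2 was 8.91-fold higher. Thinned to 2000 UMIs per cell, 1.65% of Baseline cells and 17.7% of infarct cells held an Mmp14 UMI (4.80% and 47.6% without thinning). Timp1, an inducible inhibitor, was at 1.66 in Baseline (1.36 to 1.99) and at 29.8, 17.2 and 11.5 in the infarcts. Its mean of 19.5 ± 9.35 was 11.8-fold higher, a larger fold than that of Mmp14. Each infarct library was above Baseline, but Infarct 1 was well above Infarct 3.

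Mmp13, an interstitial collagenase, had the largest fall, both in CPM and as a fold. It was at 64.8 CPM in Baseline (62.9 to 66.8) and at 4.64, 6.93 and 6.78 in the infarcts, 10.6-fold lower on average. Mmp8, the collagenase of neutrophil granules, was at 14.2 (13.3 to 15.1) and then 6.92, 4.94 and 5.80. Mmp12, the macrophage elastase, was at 108.1 (105.6 to 110.6) and then 50.4, 54.4 and 68.7, 1.87-fold lower on average and so short of 2-fold. Timp3, an inhibitor that binds to the matrix, was at 10.6 (9.84 to 11.4) and then 7.85, 1.68 and 3.66. The infarct libraries were below Baseline for all 4 genes without overlap.

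The remaining members moved little or unevenly. Mmp19, a metalloproteinase of basement membrane substrates, was at 13.6 in Baseline and at 25.6, 16.9 and 15.7 in the infarcts, above Baseline in 3 of 3 libraries. Timp2, which inhibits metalloproteinases and also takes part in the activation of pro-MMP2 by MMP14, was at 469.1 and then 447.6, 512.5 and 502.7, on both sides of Baseline. Mmp9, gelatinase B, was at 9.92 and then 9.40, 38.1 and 6.85, with Infarct 2 alone above Baseline.

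Counting genes at least 2-fold apart with all 3 infarct libraries on the same side, 2 of the 9 members were higher (Mmp14 and Timp1) and 3 were lower (Mmp13, Mmp8 and Timp3). Over all 11573 genes that reached a mean of 1 CPM, 3.71% were higher and 9.59% lower by the same rule. The median log2 difference was 0.06 over the members and -0.23 over all those genes. TMM scaling moved the all-gene median to 0.05, and Mmp13 was then the only member past 2-fold lower (Mmp8 at -0.98). Timp3 was then at -0.997, just short of 2-fold. Without Infarct 2 Timp3 was at -0.88 and the lower members were 2, and without Infarct 3 Mmp12 was at -1.04 and they were 4.

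**Figure D2:**
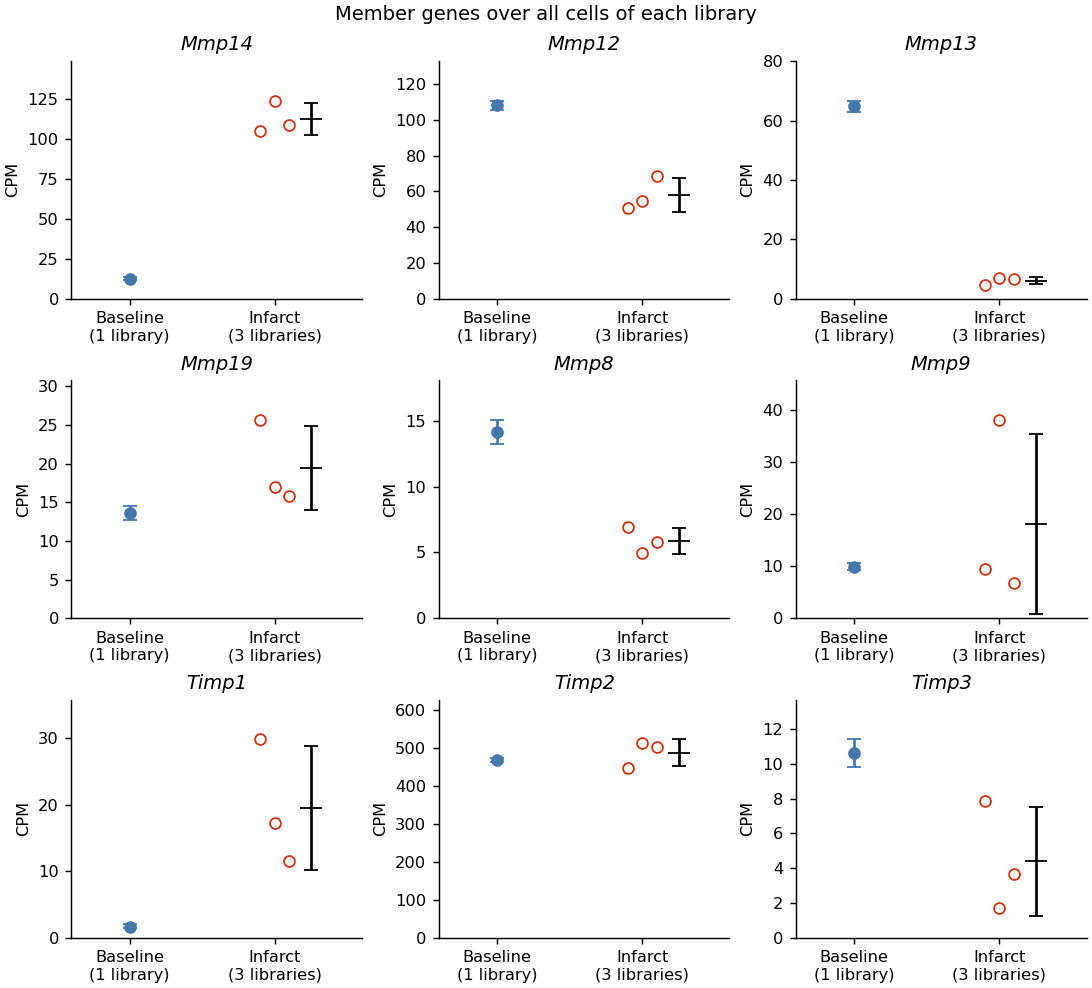
Each panel gives 1 member gene in CPM over all cells, with Baseline as a filled blue point and its 95% Poisson interval, the 3 infarct libraries as open red points and their mean and SD in black. Mmp14 and Timp1 lie above Baseline in all 3 infarcts, Mmp12, Mmp13, Mmp8 and Timp3 lie below it, and a single infarct library carries the Mmp9 mean.

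A list of 50 further genes of extracellular proteolysis gave the surroundings of the members. Of its genes, 29 reached a mean of 1 CPM, of which 11 were at least 2-fold higher and 5 lower in the infarcts, with a median log2 difference of 0.48. The lysosomal cysteine proteases were abundant, and Ctsl went from 171.3 to 592.8 ± 60.9, Ctss from 1815 to 3729 ± 244, and Ctsb, just short of 2-fold, from 1912 to 3748 ± 202. Adam8, a membrane metalloproteinase of myeloid cells, went from 20.4 to 59.2 ± 1.30, and Thbs1, a matrix protein that inhibits MMP9, from 120.2 to 244.4 ± 30.0. In the other direction, Timp4 went from 3.96 to 0.09 ± 0.05 and Adam19 from 67.0 to 20.1 ± 2.29. The urokinase gene Plau went from 27.7 to 12.8 ± 1.32. Mmp2, an activation target of MMP14, was low throughout, at 0.64 in Baseline and 3.17 ± 0.61 in the infarcts.

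The mix of gated types differed greatly between the groups, so levels were also compared within 13 types that held at least 20 cells in every library. Mmp14 was at least 2-fold higher, in all 3 infarcts, in 10 of 13 types. In resident macrophages it was at 3.89 CPM in Baseline (3.15 to 4.75) and at 38.1, 45.6 and 32.4 in the infarcts. MHC-II macrophages had 15.1 (13.2 to 17.3) and then 97.7, 97.7 and 103.3, and Gpnmb-list macrophages 61.6 (50.4 to 74.6) and then 132.4, 132.2 and 131.4. Every infarct library was above Baseline in all 3 types. The resident gate was less certain in the infarcts, where 50.8% to 64.9% of its cells lay below the stricter level, against 21.9% in Baseline. The Gpnmb-list gate was less certain in Baseline, where 53.4% of its 148 cells lay below that level, against 35.1% to 37.9% in the infarcts. Weighted to the Baseline mix of gated types, the infarct level of Mmp14 was 67.9 ± 7.01, still 5.38-fold above Baseline. This weighting was chosen after seeing the data.

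The B cell gate also held Mmp14, at 87.4, 80.1 and 58.6 CPM in the infarcts against 2 UMIs in all in Baseline. Its cells carried macrophage transcripts as well. The median level of the macrophage core list there was 45.5 UMIs per 10000 in the infarcts and 4.85 in Baseline, and 36.2% to 48.0% of its infarct cells lay below the stricter level. In granulocytes, the thinned share with an Mmp14 UMI was 2.54% in the infarcts (median depth 2938 UMIs), against 21.2% in Gpnmb-list macrophages (median depth 9202). After thinning, 17 of 144 infarct cells of the B cell gate (11.8%) and 0 of 104 in Baseline, which allows up to 2.88%, held an Mmp14 UMI. The part of free RNA in the Mmp14 of either gate was not tested.

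Mmp13 was lower in 10 of 13 types and higher in 1, the C1q-low Gpnmb-list gate (1.43 CPM in Baseline, from 2 UMIs, under the floor of 3, and 5.23 ± 2.34 in the infarcts). In MHC-II macrophages it was at 155.4 CPM in Baseline (149.0 to 162.1) and at 8.34, 9.57 and 15.2 in the infarcts, 14.1-fold lower on average. Resident macrophages had 59.0 and then 5.71, 14.5 and 4.05, and interferon-response cells 177.2 (150.1 to 207.9) and then 25.8, 24.1 and 31.2. The groups did not overlap in any of these types. After thinning, 18.8% of Baseline MHC-II macrophages and 1.53% of infarct ones held an Mmp13 UMI, and classical monocytes, where the gene was sparse, held it in 1.15% and 0.14%. At the Baseline mix the infarct level of Mmp13 was 6.49 ± 2.00, 9.99-fold below Baseline.

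Mmp12 was lower in 8 of 13 types and higher in 1, the B cell gate (0 UMIs in Baseline and 21.1 ± 20.4 CPM in the infarcts). That rise rested on 1, 4 and 33 UMIs, and 25 of the 33 in Infarct 3 were in 1 cell. Resident macrophages had 67.3 CPM in Baseline (64.1 to 70.6) and 1.90, 4.45 and 7.28 in the infarcts, from 2, 4 and 9 UMIs. MHC-II macrophages had 158.1 (151.6 to 164.8) and then 36.1, 42.5 and 62.0. In the C1q-low Gpnmb-list gate, where Mmp12 was highest in both groups, it went from 622.6 (581.9 to 665.3) to 314.9, 283.5 and 333.7. All infarct values were below Baseline in these types. The Baseline levels rested on few cells, those with 10 or more Mmp12 UMIs. Of these, 43 resident macrophages held 1326 of the 1644 UMIs of their gate, and 63 MHC-II macrophages 1381 of 2223. In the C1q-low gate 18 such cells held 816 of 871, and in its infarct cells 28, 27 and 32 held 771 of 884, 900 of 996 and 920 of 1102. Type 2 dendritic cells had 22.7 and then 28.7, 22.9 and 28.3, all inside the Baseline interval. At the Baseline mix the infarct level was 30.9 ± 6.31, 3.49-fold below Baseline, so the difference was larger than over all cells.

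Timp1 was higher in 8 of 12 types with a mean of at least 1 CPM. Type 2 dendritic cells had 3.93 in Baseline (1.80 to 7.46) and 101.9, 100.5 and 43.7 in the infarcts, and classical monocytes 3.21 (2.10 to 4.70) and then 61.5, 62.2 and 21.8. Infarct libraries were above Baseline in both. In the Saa3 Arg1 gate Timp1 was already at 54.4 in Baseline (33.7 to 83.2) and then at 30.0, 145.6 and 34.2, which overlap. Timp2 passed 2-fold in 0 of 13 types. Mmp8 was lower in 5 of 10 types, and in classical monocytes went from 85.8 (79.6 to 92.4) to 36.2, 38.6 and 70.3, under 2-fold on average. Over the 106 pairs of member and type with a mean of at least 1 CPM, 24 were higher and 28 lower, against 4.35% and 10.2% of all pairs of gene and type. Pairs of the same gene in different types are not independent of each other.

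**Figure D3:**
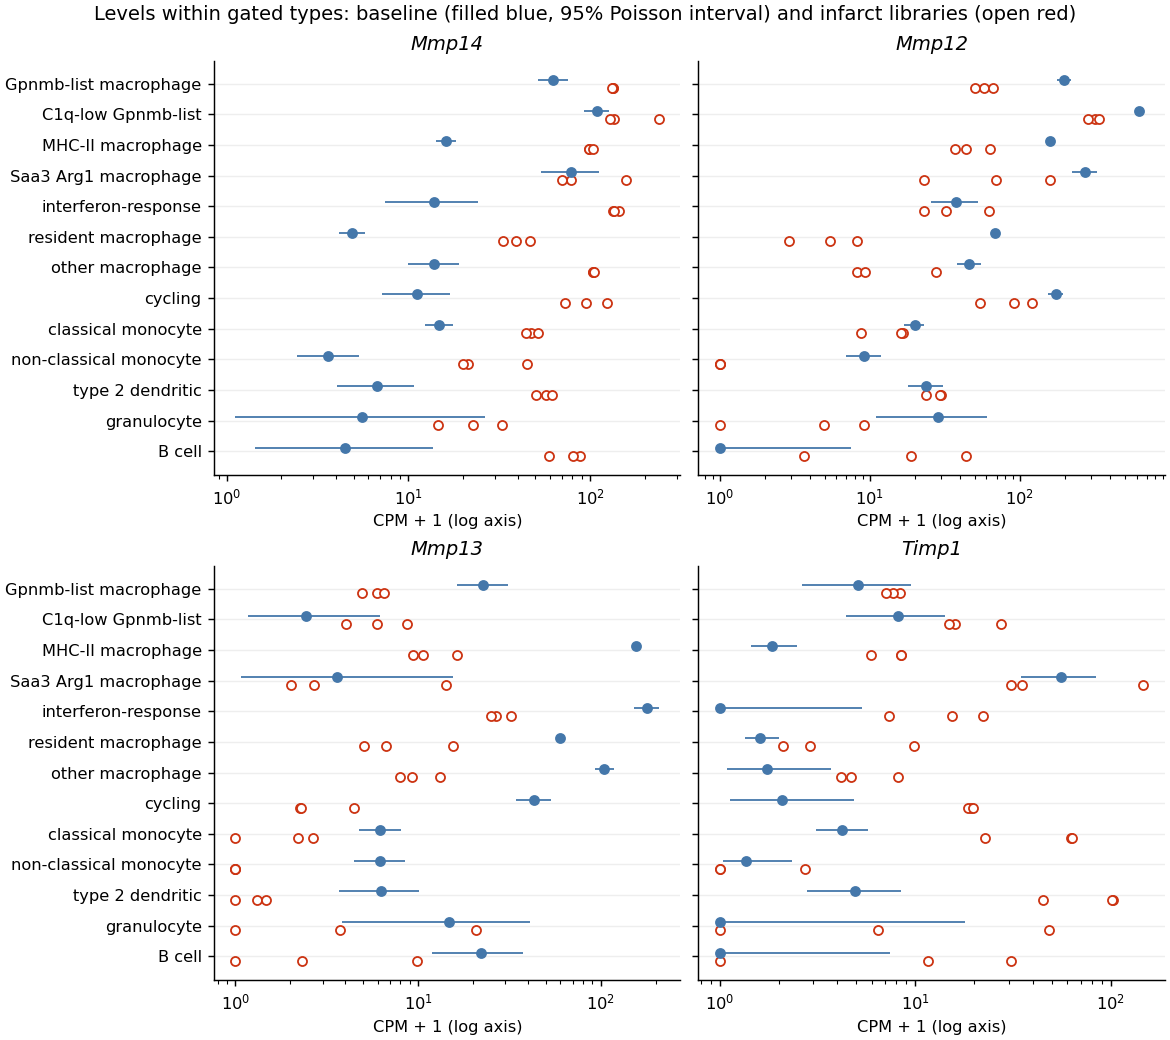
Levels of Mmp14, Mmp12, Mmp13 and Timp1 within 13 gated types, as CPM plus 1 on a log axis, with Baseline in filled blue (95% Poisson interval) and each infarct library in open red. Mmp14 lies to the right of Baseline in all infarct libraries for resident, MHC-II and Gpnmb-list macrophages, and Mmp13 lies to the left of it in the same types.

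The second comparison asked which cells of the infarct carried each member. Within each infarct library, the summed counts of a gated type were set against all other cells, for 14 types with at least 20 cells per library (edgeR quasi-likelihood test with the library as a block, Benjamini-Hochberg adjusted p over all genes, threshold 0.01). Of 126 pairs of member and type, 15 (11.9%) were higher and 62 (49.2%) lower, against 9.39% and 9.92% of all 184673 pairs of gene and type. All 9 members passed the filter on low counts in all 14 types, in many of them only through the counts of the other cells, so the lower calls are partly fixed by that. The median log2 difference was -0.99 over the member pairs (-0.95 with pairs of 0 UMIs set at their bound) and lay between -0.23 and 0.00 over all genes of a type. Without the library block the calls were 10 higher and 31 lower.

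**Figure D4:**
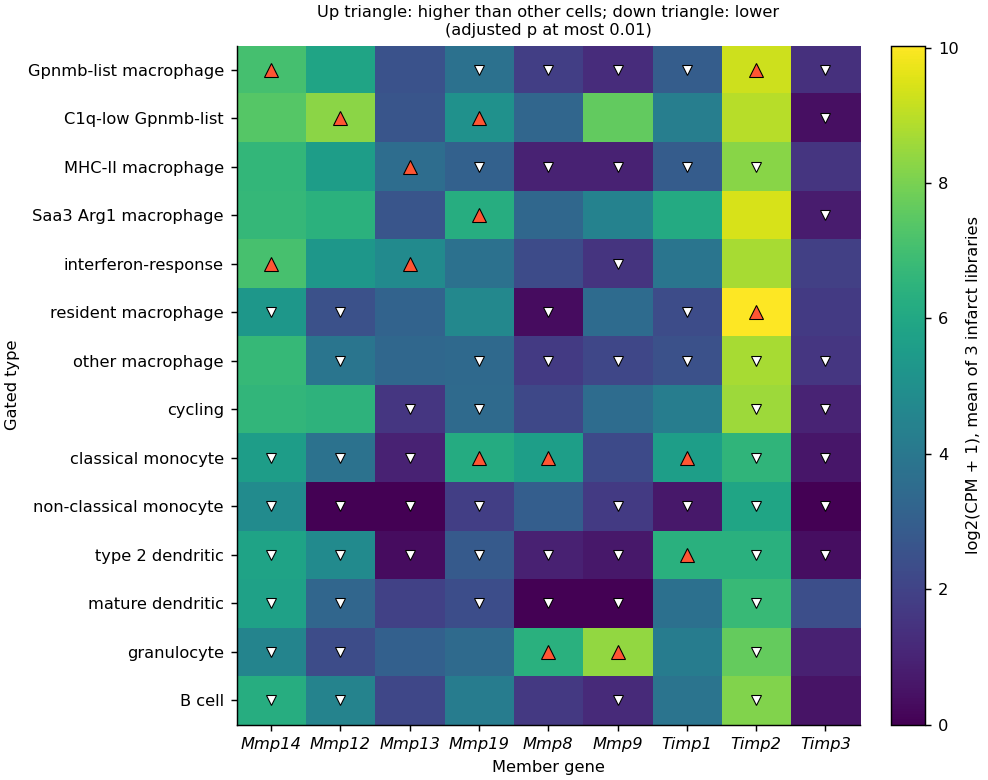
Colour gives the mean level of each member in 14 gated types over the 3 infarct libraries, as log2(CPM + 1). Up triangles mark the 15 pairs higher than the other cells and down triangles the 62 lower ones at an adjusted p of 0.01 or less, and each member except Timp3 has at least 1 up triangle.

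Mmp14 was the most widely spread metalloproteinase. Gpnmb-list macrophages held 48.4% to 58.8% of its UMIs in the infarcts. Their level of 132.0 ± 0.51 was above the other cells at 96.4, a log2 difference of 0.56 (SE 0.09, edgeR adjusted p = 0.0037, higher in 3 of 3 libraries). This call was lost without Infarct 1 (adjusted p = 0.0145), without Infarct 3 (0.0259) and without the library block (0.0130), with log2 differences between 0.49 and 0.55. Interferon-response cells were at 137.2 ± 5.61 and also higher (0.47, edgeR adjusted p = 6.3e-04). Among the 14 tested types, the C1q-low Gpnmb-list gate had the highest mean, 167.6 ± 62.5. Its spread was wide, with Infarct 2 at 239.7, and it did not pass (edgeR adjusted p = 0.0148). Of the gates too small to test, the fibroblast gate was higher in each infarct, at 414.8, 498.5 and 254.4 CPM from 36, 9 and 16 cells. The endothelial gate was at 286.7, 226.3 and 93.6 from 8, 7 and 8 cells. MHC-II macrophages, other macrophages and cycling cells lay between 96.2 and 103.4 and did not pass. Monocytes, resident macrophages, both tested dendritic gates, granulocytes and the B cell gate were lower, down to 22.3 ± 9.07 in granulocytes (log2 difference -2.52, edgeR adjusted p = 5.6e-18). The granulocyte level rested on 5, 8 and 8 UMIs in Infarct 1, 2 and 3. Of these lower calls, that of the B cell gate was lost without the library block, without Infarct 3, after thinning and with DESeq2 (adjusted p between 0.0399 and 0.419), and that of mature dendritic cells under the same 4 alternatives (0.0111 to 0.0132).

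Mmp12 was concentrated in few cells. Cells with 10 or more Mmp12 UMIs, 126, 125 and 159 of them in Infarct 1, 2 and 3, held 66.0%, 65.6% and 68.9% of its UMIs, and 198 cells held 76.4% in Baseline. The C1q-low Gpnmb-list gate stood at 310.7 ± 25.3 CPM against 48.4 in the other cells, a log2 difference of 2.72 (SE 0.11, edgeR adjusted p = 2.7e-06), and this held under each alternative tried. Those 280 to 358 cells per library held 18.8% to 19.8% of the Mmp12 UMIs, while the far more numerous Gpnmb-list macrophages, at 57.1 ± 7.96, held 43.3% to 48.1%. Non-classical monocytes had 0 UMIs in 3 of 3 libraries, at least 28.3-fold below the other cells at a floor of 3 counts over the group. The 410 infarct cells with 10 or more Mmp12 UMIs, chosen by that gene, also led in Il7r (304.8 CPM against 45.7), Lpl (762.4 against 175.3), Gpnmb (619.5 against 153.1) and Itgax (174.0 against 38.1). In Baseline, the 198 such cells led in Dcstamp, Il7r, Ccl17 and Retnla, found in 27.3%, 46.0%, 6.57% and 47.5% of them. Lpl was found in 79.8% and Itgax in 75.3%. These are descriptions of cells picked by Mmp12, with no test.

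Mmp13 had its highest infarct level in interferon-response cells, at 25.8, 24.1 and 31.2 CPM against 5.1 in the other cells (log2 difference 2.55, SE 0.15, edgeR adjusted p = 1.4e-07), and this held under each alternative tried. MHC-II macrophages followed at 8.34, 9.57 and 15.2 (log2 difference 1.14, edgeR adjusted p = 4.8e-04, lost at 0.0338 without the library block). In Baseline the order was the same at higher levels, 177.2 in interferon-response cells (150.1 to 207.9) and 155.4 in MHC-II macrophages (149.0 to 162.1), whose intervals overlap. The 255 Baseline cells with 5 or more Mmp13 UMIs, chosen by that gene, led in Cxcl10, Ifit2, Ch25h and Ccl12. Those genes were found in 8.24%, 10.98%, 29.4% and 49.8% of them. Ccl4 and Cd72, also higher there, were each found in 76.9%. Of 68 Baseline cells with 10 or more Mmp13 UMIs, 36 were MHC-II macrophages, 21 resident macrophages and 4 interferon-response cells. Mmp12 and Mmp13, neighbours in the genome, were also looked for in the same cells. Of 2177 Baseline MHC-II macrophages thinned to 2000 UMIs, 226 held Mmp12, 409 held Mmp13 and 59 held both, against a product of 42.5. In 3126 Baseline resident macrophages the numbers were near each other, 8 against 8.29, and in 13007 infarct Gpnmb-list macrophages they were 15 against 3.95. These are descriptions over cells, with no test.

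Mmp19 was higher in classical monocytes and in the Saa3 Arg1 gate, whose list also holds Fn1 and Marco. Classical monocytes were at 83.8, 78.7 and 48.2 CPM against 15.3 in the other cells (log2 difference 2.24, SE 0.14, edgeR adjusted p = 1.3e-05). The Saa3 Arg1 gate was at 45.8, 138.8 and 41.8 (1.86, SE 0.33, edgeR adjusted p = 0.0027), with Infarct 2, where the gate held 175 cells, far above the others. This call was lost without the library block (adjusted p = 0.0102). The C1q-low Gpnmb-list gate was also higher (0.88, edgeR adjusted p = 0.0070), a call lost without Infarct 3, without the block, after thinning and against macrophages and monocytes alone (adjusted p between 0.0127 and 0.0777). The Saa3 Arg1 and classical monocyte gates did not differ beyond their spread. Gpnmb-list macrophages were lower, at 12.3 ± 1.36 (log2 difference -0.92, edgeR adjusted p = 0.0017), a call lost with stricter gates (adjusted p = 0.0311). Non-classical monocytes had the lowest mean of the 14 types, from only 1, 1 and 2 UMIs in Infarct 1, 2 and 3. They were at 2.67 ± 0.67 against 19.5 in the other cells (-2.88, edgeR adjusted p = 5.1e-07), a call lost after thinning (adjusted p = 0.0347).

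Mmp8 was highest in classical monocytes, at 36.2, 38.6 and 70.3 CPM, and in granulocytes, at 118.7, 98.8 and 24.5. Both were above the other cells at 3.1 and 5.6, with log2 differences of 3.96 (SE 0.20, edgeR adjusted p = 5.6e-06) and 3.60 (SE 0.35, edgeR adjusted p = 9.3e-23). The libraries of the 2 gates overlap, so their order is not set. Classical monocytes held 41.8% to 58.7% of the Mmp8 UMIs. The other 12 tested types were at 9.14 or below.

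Mmp9 had its highest level in granulocytes in Baseline, Infarct 1 and Infarct 3, but most of its UMIs lay in other cells in each library. In Infarct 2 the C1q-low Gpnmb-list gate was at 583.5 CPM and ungated cells at 608.5, both above granulocytes. Granulocytes were at 439.8, 288.5 and 291.6 CPM against 16.9 in the other cells (log2 difference 4.76, SE 0.20, edgeR adjusted p = 1.8e-120), and at 930.8 in Baseline (807.1 to 1068). They held 30.3% of its UMIs in Baseline, where resident macrophages held 60.2% at 16.5 CPM, and 2.04% to 19.6% in the infarcts. In Infarct 1, the Saa3 Arg1 gate held 38.6% and ungated cells 32.1%, with 259 UMIs in 1 cell. In Infarct 3, ungated cells held 27.7% and the Saa3 Arg1 gate 23.9%. In Infarct 2, 31 cells with 10 or more Mmp9 UMIs held 3238 of 3578 UMIs (90.5%), of which 644 were in 1 cell. Without those cells Infarct 2 was at 3.65 CPM, below Infarct 1 at 6.21 and Infarct 3 at 4.20 computed the same way. Baseline computed so was at 9.47, above each infarct library. Of the 31 cells, 17 fell in the C1q-low Gpnmb-list gate, 12 in no gate and 0 in the granulocyte gate. Their median depth was 30185 UMIs. Of the 31 cells, 0 were among the 930 highest-scoring cells of Infarct 2 removed as possible doublets in an alternative. Scrublet did not work on the infarct libraries, so whether the 31 are doublets was not tested.

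All 31 of these cells held at least 10 UMIs of Ctsk, cathepsin K, a collagen-cleaving protease best known from osteoclasts, the bone-resorbing relatives of macrophages. All 31 also held Acp5, the tartrate-resistant acid phosphatase, and 27 held Dcstamp, which is needed for osteoclast fusion. Over the 38 infarct cells with 10 or more Mmp9 UMIs, Ctsk was at 13380 CPM against 11.5 in all other infarct cells, Acp5 at 8765 against 93.2, Atp6v0d2, a proton pump subunit, at 1257 against 9.42, and Ocstamp at 183.9 against 1.94. Infarct 1 and Infarct 3 held 1 and 2 such cells with 10 or more Ctsk UMIs, and Baseline held 0. Mmp14 was found in 31 of the 31 cells of Infarct 2, C1qa in 22 and Gpnmb in 14. Their median depth was 30185 UMIs, against 8469.5 over all cells of that library, and a UMI of any gene is found more readily in deeper cells. These counts were not compared at equal depth. The cells were chosen by Mmp9, so the other genes describe them and were not tested. No marker list for such cells was fixed, and they are given no type name here. The heart of Infarct 2 and its library cannot be told apart.

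**Figure D5:**
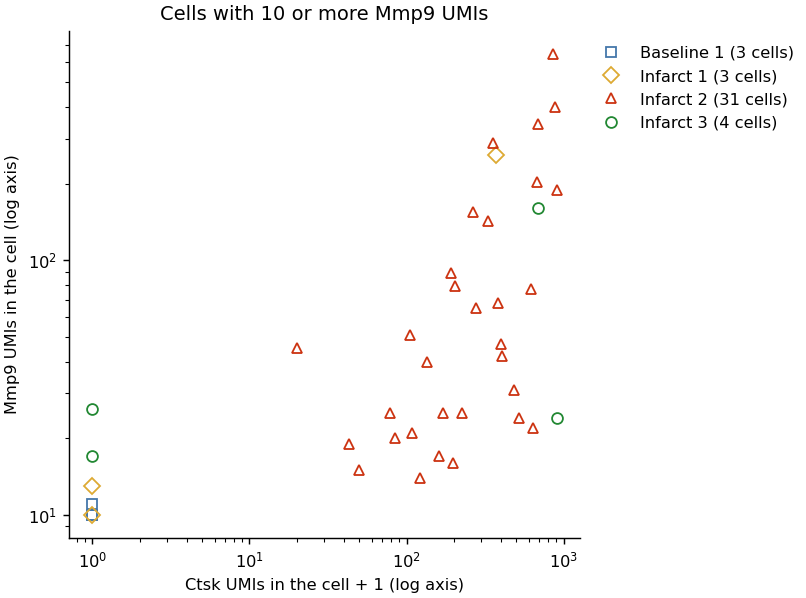
Each point is 1 of the 41 cells with 10 or more Mmp9 UMIs, placed by its Ctsk UMIs plus 1 and its Mmp9 UMIs, both on log axes, with the library given by colour and shape. The 31 cells of Infarct 2 all lie at 10 or more Ctsk UMIs, as do 1 cell of Infarct 1 and 2 of Infarct 3, and the 3 Baseline cells lie at 0.

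Among the inhibitors, Timp1 was highest in type 2 dendritic cells, at 101.9, 100.5 and 43.7 CPM against 17.7 in the other cells (log2 difference 2.24, SE 0.13, edgeR adjusted p = 1.0e-11), and this held under each alternative tried. Classical monocytes were at 48.5 ± 23.1 (1.54, edgeR adjusted p = 3.4e-04, lost at 0.0151 without the library block), which overlaps type 2 dendritic cells in its spread. The Saa3 Arg1 gate, at 69.9 ± 65.6, did not pass (edgeR adjusted p = 0.0275). The few cells of the fibroblast gate, 36, 9 and 16 per infarct library and too few to test, stood at 1484, 484.6 and 261.1. In Infarct 1 they held 29.6% of all Timp1 UMIs, and 1 cell of that library held 384.

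Timp2 was the most abundant member by far, with a UMI in 51.4% of infarct cells after thinning. Resident macrophages were at 1062, 981.5 and 1087 CPM (log2 difference 1.01, SE 0.08, edgeR adjusted p = 5.7e-22) and Gpnmb-list macrophages at 585.8, 650.3 and 589.3 (0.78, SE 0.07, edgeR adjusted p = 5.5e-04). The 2 types did not overlap. Both calls held under each alternative tried. The Saa3 Arg1 gate had a higher mean than Gpnmb-list macrophages, 691.4 ± 164, but did not pass (edgeR adjusted p = 0.0684). Its 24 Baseline cells were at 790.4 CPM. Monocytes and dendritic cells were lower, from 58.5 ± 31.7 in non-classical monocytes to 105.8 ± 29.1 in mature dendritic cells. In Baseline too, these were the highest and lowest of the 13 types with enough cells, with 843.5 in resident macrophages (832.0 to 855.1) and 38.2 in non-classical monocytes.

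Timp3 was higher in 0 of 14 types (edgeR, with 0 types higher by DESeq2 and 0 at an unadjusted p under 0.05). Its highest levels were in cells that are not phagocytes. In Baseline, 110 cells of the endothelial gate held 66.1% of its UMIs at 1115 CPM. In the infarcts, the fibroblast gate held 79.4%, 25.3% and 39.1% of them at 1048, 276.9 and 816.8. Gpnmb-list macrophages held 9.51%, 32.3% and 26.6%, the largest share of any gate in Infarct 2, at 2.00 CPM or less. MHC-II macrophages had 3.34 in Baseline and 1.92 ± 0.46 in the infarcts. The number of endothelial cells in the sort went from 110 to 8, 7 and 8, and its part in the lower Timp3 of the infarcts was not tested.

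The third comparison asked whether the members differed between Spp1-high and Spp1-low cells among Gpnmb-positive macrophages of the infarcts. Spp1 encodes osteopontin, and the 2 gates held 784, 874 and 781 against 696, 977 and 1157 cells. Of the 9 members, 6 were higher in the Spp1-high cells and 0 lower, against 7.71% and 6.03% of the 10920 genes tested. Mmp12 was at 104.4 ± 23.5 against 54.3 ± 6.52 CPM (log2 difference 0.96, SE 0.06, edgeR adjusted p = 3.7e-12). Timp1 was at 10.0 ± 1.42 against 5.28 ± 1.27 (0.96), Mmp8 at 6.41 ± 2.06 against 2.55 ± 1.01 (1.38), Mmp19 at 19.3 ± 2.86 against 12.3 ± 2.18 (0.68), and Timp2 at 825.8 ± 80.2 against 640.2 ± 46.6 (0.39). All 5 were higher in 3 of 3 libraries. Mmp14 was nearly level, at 148.7 ± 7.53 against 136.2 ± 6.88 (0.15, SE 0.04, edgeR adjusted p = 0.0053). Its call was lost under each of the 6 alternatives, with adjusted p between 0.0112 and 0.269 and log2 differences between 0.15 and 0.19. Without the library block, Mmp12 and Mmp14 were at an edgeR adjusted p of 0.00384 and 0.245, and Timp1, Mmp19, Mmp8 and Timp2 also missed the threshold (0.0119 to 0.0315).

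Of the proteolysis list, 14 of 23 genes were higher in the Spp1-high cells and 1, the protease inhibitor Cst3, was lower. Ctsl was at 1363 ± 74.8 against 637.3 ± 56.1, Adam8 at 131.2 ± 15.0 against 53.5 ± 4.00 and Ctsb at 7733 ± 271 against 5459 ± 185. Mmp27, a further metalloproteinase gene, was low but higher, at 5.77 ± 0.77 against 2.00 ± 0.91. The Spp1-high cells were also deeper, with a median of 11022 to 11497 UMIs against 9684 to 10024, and the part of depth was not tested here.

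Across gated types, the proteolysis list gave 59 higher and 163 lower of 467 pairs (12.6% and 34.9%), against 9.39% and 9.92% of all pairs of gene and type, with 37 of 50 genes tested in at least 1 type. As for the members, genes that passed the filter only through the counts of the other cells add to the lower calls. Classical monocytes were higher in Thbs1 (1101 ± 445 against 186.2, log2 difference 2.56) and in Plaur, the urokinase receptor (176.0 ± 55.4 against 52.0, 1.77). The Saa3 Arg1 gate was higher in Serpinb2, an inhibitor of urokinase (103.7 ± 63.9 against 2.95, 5.15), and in Thbs1. Granulocytes were higher in Lcn2, whose protein binds MMP9 (905.3 ± 671 against 1.95, 8.67). Mature dendritic cells were higher in Mmp25, a membrane-anchored metalloproteinase (48.1 ± 14.6 against 0.42, 6.91), and in Mmp23 (26.0 ± 14.2 against 1.76, 4.01). In the C1q-low Gpnmb-list gate, where Mmp12 led, Adam8 was at 181.3 ± 24.4 against 54.7 (1.75) and Ctsk at 887.2 ± 1240 against 23.9 (4.49), the latter resting on Infarct 2. Gpnmb-list macrophages were higher in Ctsb (5143 ± 207 against 2539, 1.11) and Cela1 (31.5 ± 1.75 against 12.1, 1.48). All these log2 differences passed an edgeR adjusted p of 0.01.

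Likeness to other genes was measured as Pearson's r of log2(CPM + 1) over 42 points, 14 types in 3 infarct libraries, which share libraries and are not independent. Timp2 was most like Tspan4 (r = 0.96), Tpp1 (0.96) and Stab1 (0.94). Mmp14 was most like the potassium channel gene Kcnn4 (0.84) and Ctss (0.80), and Mmp12 was also most like Kcnn4 (0.83). The pattern of Mmp13 was closest to those of Ccl12 (0.78) and Ch25h (0.77), that of Mmp8 to Clec4e (0.81) and Tarm1 (0.81), and that of Mmp9 to Rufy4 (0.85). Mmp19 was most like P4hb (0.78) and Fam129b (0.77), and Timp1 most like Uck2 (0.74). Between members, the highest r was 0.79, for Mmp14 and Mmp12.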

How the data were processed

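Single-cell RNA-seq (10x Genomics) was run on 4 libraries. The authors deposited raw UMI counts per gene and cell, aligned to mm10. Cell Ranger 3.1.0 is named in the file headers and 3.0.1 in the submitters' processing notes. Library totals were 71093963 to 97944428 UMIs.

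The filter took barcodes whose UMI total lay from 500 to 40000 and whose gene number exceeded 200. Types were gated on marker lists without clustering, with thresholds set after the marker levels were seen. Cells that met no gate stayed in the all-cell sums. Scrublet marked 2.18% of Baseline cells but at most 0.0198% of infarct cells, so it did not work there, and the 8.10% to 8.63% of highest-scoring cells were removed only as an alternative. The members and gene lists were chosen with earlier results of these data known. By rule, the genes open to naming were the members, up to 5 genes of the proteolysis list per type and direction with the largest log2 difference past the threshold, and the 3 genes most like each member by r. The text names only part of these, and no list gene lower in a gated type. That part was not picked by the rule. Genes of the list given against Baseline or between the Spp1 gates, and those of cells high in a member, were chosen after their values were seen.

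Counts were summed per infarct library over a type and over its other cells, and tested with edgeR 4.0.16 (R 4.3.3; TMM, filterByExpr, quasi-likelihood) with the library as a block, since both sums come from the same heart. Benjamini-Hochberg adjustment ran over all genes tested. Correlations of same-library deviations were lowest in mature dendritic cells (0.0258 to 0.0700) and reached 0.479 in Gpnmb-list macrophages. Alternatives were DESeq2 1.42.0, other filters, gates, comparators and depths, the fit without the block and leaving out each infarct. The 3 infarct libraries are separate hearts. Intervals and floors cover counting error only. Analyses used Python 3.11.15 with scipy 1.17.1 and scanpy 1.11.5.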

Additional observations from a re-analysis of the deposited data

How the results depend on the processing

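Each of the 77 calls of a member in a gated type was recomputed under 13 alternatives, and 37 calls held in all of them. Over 1001 values, 885 kept their direction and side of the threshold, 114 lost the call and 2 changed direction. Both of the latter were Timp3 with macrophages and monocytes as the other cells, at 0.27 in Gpnmb-list macrophages (edgeR adjusted p = 0.308) and 0.34 in other macrophages (0.419). Without the library block (the pairing of sums from one heart), 36 calls were lost, leaving 31 lower and 10 higher pairs, and the proteolysis list had 31 higher and 90 lower pairs. For Mmp14 between the Spp1-high and Spp1-low gates, the log2 difference was 0.15 without the block (edgeR adjusted p = 0.245), 0.19 with stricter gates (0.0112), 0.15 with DESeq2 (adjusted p = 0.269) and 0.15 in each fit that left out 1 infarct (edgeR adjusted p = 0.0133 to 0.0495). Leaving out 1 infarct gave 15 to 21 higher and 58 to 68 lower member pairs, 46 to 60 higher and 137 to 174 lower pairs of the proteolysis list, 2 higher and 2 to 4 lower members against Baseline, and 25 to 26 higher and 28 to 31 lower pairs within types. With TMM scaling, 1 member was lower than Baseline. With the mean of each cell's level, or thinning, 3 members were higher, Mmp19 being added. Shares of cells with a UMI moved with the thinning depth in 34 of 36 values. The causes were not tested. With 1 Baseline library, the spread between uninjured hearts is not known.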
